A study of Sus scrofa with 22 samples.

Results

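The genes described here are the pig zinc finger genes named ZNF followed by a number below 500 and an optional letter, 130 of the 25749 named genes for which the authors gave a mean in each of 39 groups of cells. Membership follows from the name. RNA of single cells was sequenced by a modified Smart-seq2 protocol in 20 libraries of pig embryo cells, P1 to P20, taken between E0 and E14 (E stands for embryonic day), and in 2 libraries of pgEpiSC. These are stem cell lines made from the pig epiblast of E10, before gastrulation, and their libraries are labelled low and high, words that the labels leave undefined. They give neither breed and sex nor the number of embryos and lines, so p-values measure only the spread between these libraries.

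The authors' groups ran through Oocyte, Zygote, 2C, 4C, 8C and Morula_E4 (oocyte to morula) to the inner cell mass (preICM_E5, ICM_E6), the trophectoderm (preTE_E5, TE_E6 to TE_E14), the epiblast and hypoblast of E7 to E10, the ectoderm, mesoderm and endoderm of E11 to E14, and pgEpiSC_low and pgEpiSC_high. Group names are spelled as in the authors' columns. The files used here do not state which cell belongs to which embryonic group. The cells of each group were therefore solved for as the set whose mean gave the authors' deposited mean, and the standard deviations, which were not used for this, then matched too, for 100% of the compared genes in all 39 groups within 0.005. Gene names were paired with the IDs of the count table by the same 39 means: a table of gene names gives the same ID for 122 of the 130 members, and another ID or none for 8, among them ZNF282, ZNF283 and ZNF296, whose names rest on that match alone. The groups held between 2 cells (TE_E9) and 129 cells (Hypoblast_E8), and 1647 cells in all, with a median of 274531 counts per cell and library totals between 7415760 and 39405309. The same 96 cell barcodes recurred between libraries. Levels are given as CPM (counts brought to a sum of 1000000 over the pig genes) after adding up the cells of a group, and in the tests the cells of a group in 1 library. They are not divided by transcript length, so a level compares 1 gene between groups and not 2 genes with each other. Defining markers followed the group names in most groups, with exceptions: TBXT, a primitive streak and mesoderm factor, was at 2.49 CPM or less in all 4 mesoderm groups and listed at 0 in Mesdoderm_E14, GATA3 was at 12.6 CPM in preTE_E5, against 159 CPM in TE_E6, and the endoderm factor SOX17 was at 9.35 CPM in Defi_Endoderm_E14. Of the other mesoderm markers, MESP1 was at 22.4 CPM in Mesdoderm_E13, against 146.5 CPM in Ectoderm_E13, and at 16.4 CPM in Mesdoderm_E14, against 24.8 CPM in Ectoderm_E14. HAND1 was at 543 CPM in Mesdoderm_E14, against 227.5 CPM in Ectoderm_E14, and reached 602 CPM in TE_E14, while PDGFRA was higher in the mesoderm on each of the 4 days. The ectoderm marker OTX2 was at 214.8 CPM in Defi_Endoderm_E13, against 120.3 CPM in Ectoderm_E13. On the other days it was higher in the ectoderm, but only 15.2 CPM in Ectoderm_E14. The endoderm factor FOXA2 was at 23.3 CPM in Defi_Endoderm_E14, against 17.5 CPM in Ectoderm_E14. It was at 53.3 CPM or more in the other endoderm groups. SOX2 was higher in the ectoderm than in the endoderm on each day. MESP1 and OTX2 reached 363 and 428 CPM in 8C.

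A ZNF protein carries fingers, short loops folded around a zinc ion, of which most read DNA sequence and some bind RNA or protein. Many carry a KRAB domain as well, which recruits the corepressor TRIM28 and the histone methyltransferase SETDB1 and so lays down silent chromatin, often over transposable elements and imprinted genes. The names are numbers of discovery, so that the family also holds proteins with other jobs, such as the SUMO ligase ZNF451, the RNA-binding ZNF106 and ZNF346, and the spindle protein ZNF207. In the early embryo the maternal stock of RNA is degraded while the embryo's own genome is switched on, in the pig mainly around the 4-cell stage.

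Before any level is read, 11 of the 130 members need a reservation, because cell by cell their counts followed those of another gene. The criterion was a Pearson correlation of log counts of at least 0.75 over 1647 cells together with equal counts in at least 5% of the cells that had either gene, a criterion chosen after the values were seen. ZNF76 had the same count as DEF6 in 82.6% of such cells, ZNF446 the same as an unnamed gene in 69.3%, and ZNF276 the same as FANCA in 52.5%. ZNF79 had 362414 counts, of which an unnamed gene, ENSSSCG00000033019, matched nearly all, with 358088 counts of its own. ZNF202 was never below SCN3B, a sodium channel subunit gene, in any cell, and was above it in 647 of 901. The remaining 6 pairs were ZNF335 with PCIF1, ZNF34 and ZNF382 each with an unnamed gene, ZNF385C with NKIRAS2, ZNF410 with COQ6 and ZNF483 with PTGR1. In the other 119 members the median share of cells with equal counts was 4.61%. In the RefSeq annotation of build Sscrofa11.1 the pairs of ZNF76, ZNF276 and ZNF385C overlap, ZNF335 and PCIF1 lie 528 bases apart, ZNF202 and SCN3B 51158 bases. Whether the counting gave 1 read to both genes of a pair was not tested, and neither was the strand setting, which the labels do not state.

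**Figure D1:**
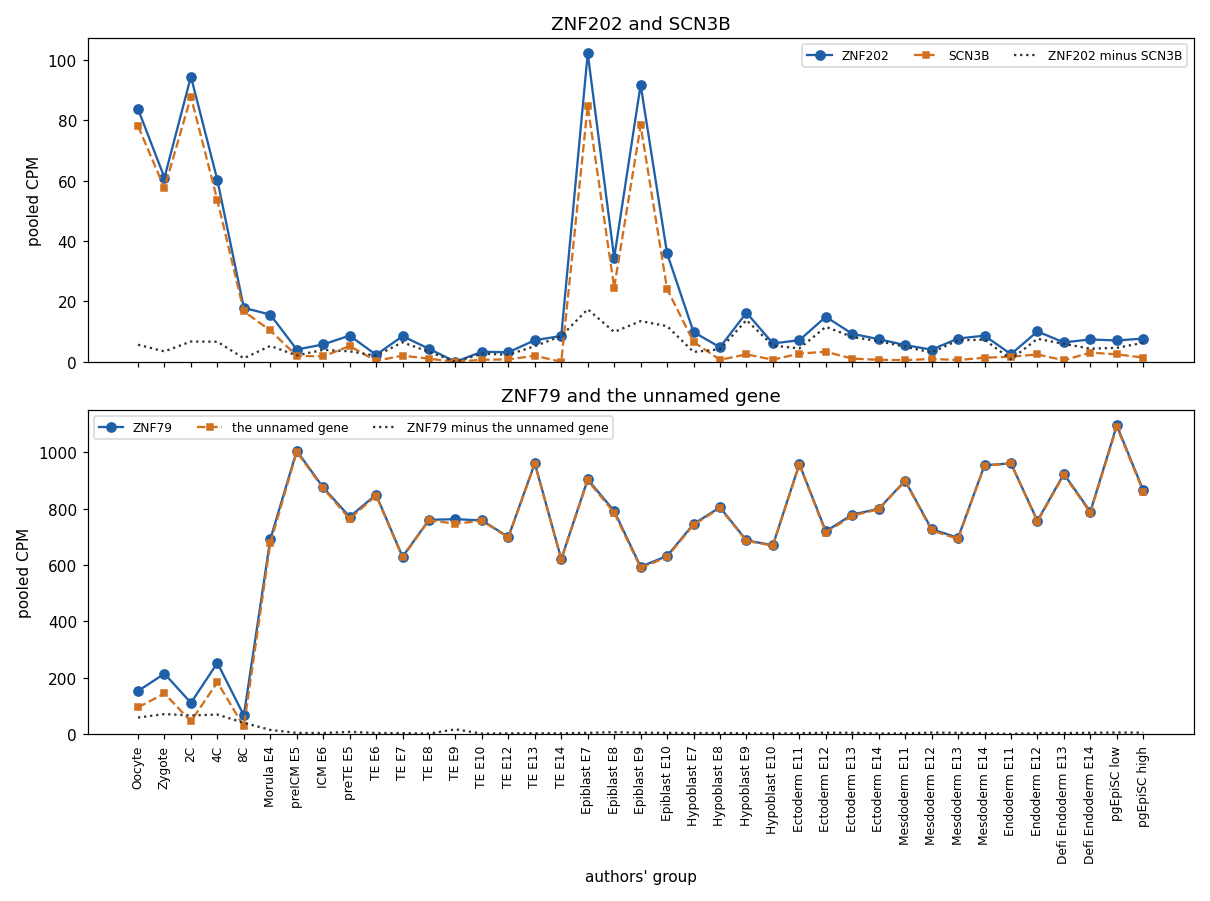
Pooled CPM in the 39 groups of ZNF202 with SCN3B (top) and of ZNF79 with the unnamed gene (bottom); the dotted line is the difference. In Epiblast_E7 ZNF202 stood at 102 CPM and SCN3B at 84.8 CPM, and from preICM_E5 on the ZNF79 curve lies on that of the unnamed gene.

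ZNF202, a repressor of lipid metabolism genes in human cells, lies at chr9:50583590-50605591. Its summed level was 83.7 CPM in Oocyte, 94.5 in 2C, 15.6 in Morula_E4, 5.74 in ICM_E6, 102 in Epiblast_E7, 35.9 in Epiblast_E10, 7.13 in Ectoderm_E11 and 7.05 in pgEpiSC_low. SCN3B ran beside it at 78.1, 87.8, 10.4, 1.79, 84.8, 24.1, 2.71 and 2.45 CPM in the same groups. The difference of the pair was 17.4 CPM in Epiblast_E7, 11.8 in Epiblast_E10, 6.72 in 2C and 3.95 in ICM_E6. The course of ZNF202, high in the oocyte and again in the epiblast, was therefore also that of SCN3B.

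ZNF79 had its highest level, 1095 CPM, in pgEpiSC_low, where the unnamed gene had 1090 CPM. In 2C it had 110 CPM and the unnamed gene 44.6. Their difference was 65.6 CPM in 2C, 39.4 in 8C, 14.1 in Morula_E4 and 3.54 in preICM_E5. In RefSeq the ribosomal protein gene RPL12 is the next gene after ZNF79. The difference was thus smaller in Morula_E4 and preICM_E5, where ZNF79 was high, than in 2C and 8C.

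Of the 130 members, 121 reached 10 CPM in some of the 39 groups, 34 reached 100 CPM, and 11 stayed at 10 CPM or more in all 39 groups. The 9 members below 10 CPM everywhere were ZNF3, ZNF8, ZNF70, ZNF157, ZNF213, ZNF316, ZNF394, ZNF404 and ZNF488. The index tau, 0 for a gene at the same level in every group and 1 for a gene found in 1 group, had a median of 0.782 over the members that reached 10 CPM, against 0.81 over named genes that did.

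By the authors' deposited means, 39 members (30.0%) had their highest group among Oocyte, Zygote and 2C, where 21.79% of all named genes did, and 31 members (23.85%) among 4C, 8C and Morula_E4, where 16.24% did. The trophectoderm held the highest group of 12 members (9.231%), against 21.19% of all named genes. By pooled CPM the trophectoderm held it for 19 members (14.62%), against 23.44% of named genes, and Oocyte, Zygote and 2C for 35 (26.92%), against 19.46%. Of the 12, 8 had it in TE_E9, which is 2 cells. The single groups with most were 2C with 28 members, 4C with 15, 8C with 14, Epiblast_E9 with 13, Defi_Endoderm_E14 with 12 and Oocyte with 10. Many of these groups rest on few cells. Oocyte is 4 cells and Zygote 6 cells, each of 1 library, 2C is 10 cells, Epiblast_E9 7 cells of 1 library and Defi_Endoderm_E14 15 cells.

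**Figure D2:**
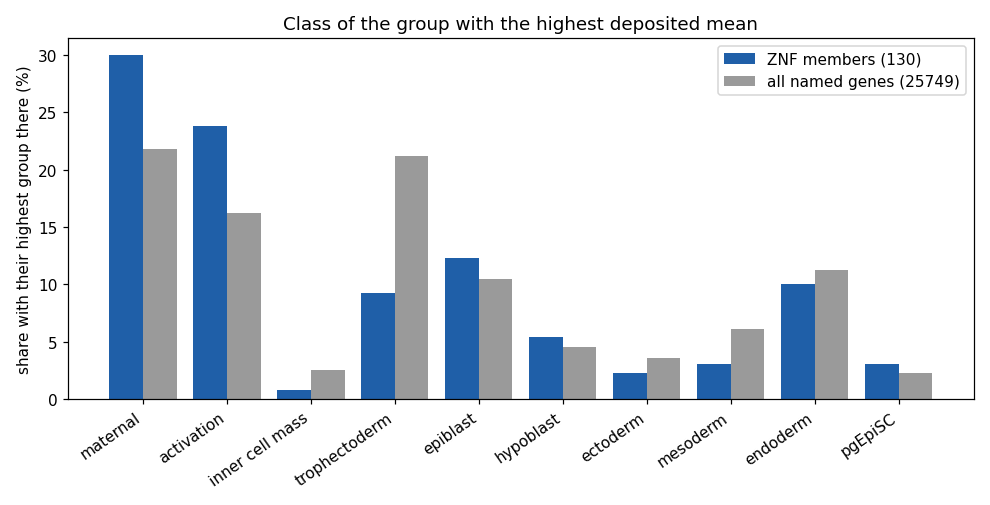
Share of the 130 members (left bar of each pair) and of all 25749 named genes (right bar) whose highest deposited mean lies in a group of each class. The members stand at 30.0% in the maternal class and 9.231% in the trophectoderm, all named genes at 21.79% and 21.19%.

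The summed level of all members was 5747 CPM in Oocyte, 4115 in Zygote, 5647 in 2C, 5580 in 4C, 4490 in 8C, 3948 in Morula_E4 and 3295 in ICM_E6. Later it lay between 3146 and 4132 CPM in the epiblast groups, between 2712 and 3417 in the hypoblast, between 2340 and 3720 in the trophectoderm, and at 3928 and 3816 CPM in pgEpiSC_low and pgEpiSC_high. The summed level of the ZNF genes numbered 500 or more was likewise lower in ICM_E6, at 1766 CPM, than in Oocyte, at 4359 CPM. The early part of the members' course depended on the scale. In Morula_E4 the 2 libraries had 3967 and 3860 CPM, against 5533 and 5885 CPM in 2C, so the groups did not overlap. After the TMM scaling of the test, which adjusts for differences in RNA composition, the sum was 3783 CPM in 4C, 4677 CPM in 8C and 3241 CPM in Morula_E4, against 3495 CPM in 2C. The mean CPM of the same sums was 5472 in 4C, 4551 in 8C and 3914 in Morula_E4, against 5709 in 2C. So 4C and 8C stood below 2C in CPM and above it after the scaling, and Morula_E4 below it on both scales. These sums include ZNF79, whose counts an unnamed gene matched. It had 107 and 118 CPM in the libraries of 2C, out of 5533 and 5885 CPM. In those of ICM_E6 it had 890 and 836 CPM, out of 3360 and 3129 CPM. The sums were not computed without ZNF79, so its part in their course was not tested.

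In the levels of these genes the sums of the cleavage stages did not all follow the order of their stages. Over the 130 members the 4C cells of P1 correlated at a Spearman's rho of 0.732 with the morula cells of P2 and at 0.636 with the 2C cells of P1. The 4C cells of P13 correlated at 0.397 with that morula and at 0.890 with that 2C. The 8C cells of P19 and P20 correlated at 0.400 and 0.436 with that morula, and at 0.907 and 0.901 with that 2C. By these members 4C of P1 was thus near the morula, and 4C of P13 and both 8C sums near 2C. Oocyte markers were still present at E4, with BMP15 at 337 CPM and GDF9 at 184 CPM in Morula_E4, against 538 and 289 CPM in 2C. In preICM_E5 they were at 5.64 and 5.25 CPM. ZP3 was at 106.4 CPM in Morula_E4, against 128.8 CPM in 2C. MOS was far lower by then, at 19.9 CPM in Morula_E4, against 291.9 CPM in 2C and 414.7 CPM in 8C. The part of the order of the sums, or of these markers, in the results was not tested. Stage results are given below with and without each library.

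The comparison of Morula_E4 with 2C asks which zinc finger genes made up a smaller and which a larger share of the RNA by the morula. Rises and falls here and below are in this share. Amounts of RNA per cell were not estimated, and the 92 spike-ins of the count table were not used. Of 129 members tested with edgeR's quasi-likelihood test (Benjamini-Hochberg adjusted p under 0.05 over 23045 genes), 19 were higher in Morula_E4 and 18 lower. Of these 37, 6 share counts with another gene, which leaves 16 higher and 15 lower. DESeq2 called 60, 19 higher and 41 lower. Here and below, shares of all genes are those of edgeR's main fit. Counts from DESeq2, its size factors or other settings have no such share beside them and cannot be set against these. Of all genes tested, 22.0% were called, 14.4% higher and 7.61% lower, so that the members' 13.95% lower stands above the background and their 14.73% higher at it. Log2 changes are those of the fit after TMM scaling, here 0.44 above the log2 ratio of the CPM values printed. The median log2 change was 0.03 over the members (0.04 with members at 0 in all sums of a group set at their bound of 3 counts) and 0 over all genes. With DESeq2's size factors, which move the median of all genes by -0.13, 11 were higher and 29 lower. The 2C sums hold 8 cells of P1 and only 2 cells of P13, the Morula_E4 sums 24 cells of P1 and 6 of P2. The 4C sums hold 17 cells of P1 and 6 of P13, the 8C sums 15 cells of P19 and 65 of P20. So every comparison with 2C rests in part on a sum of 2 cells. The count was 14 without P1, 14 without P2 and 22 without P13. P1 holds cells of both stages, and inside it all 19 and all 18 called members kept their direction in CPM. P1 also supplied a sum to each arm of the test that made these calls, so this is not independent support.

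Among the members that fell, ZNF398, which in human pluripotent cells acts with SMAD factors to keep the epithelial, undifferentiated state, had 40.5 and 8.40 CPM in Morula_E4, against 418 and 262 CPM in 2C (log2 change -3.38, SE 1.10, edgeR adjusted p = 0.0219). ZNF436, a KRAB zinc finger, had 23.1 and 4.58 CPM in Morula_E4, against 273 and 192 CPM in 2C (log2 change -3.63, edgeR adjusted p = 0.0366). Both lost the call without P1 or without P2, and in both the morula value of P1 was well above that of P2. ZNF283 had 23.0 and 6.11 CPM, against 219 and 173 CPM in 2C (log2 change -3.30, edgeR adjusted p = 0.00257). ZNF354B had 0.844 and 0.763 CPM, against 28.7 and 30.2 CPM in 2C (log2 change -4.72, edgeR adjusted p = 0.0189), and ZNF358 had 0.338 and 0 CPM, against 14.7 and 21.7 CPM in 2C (log2 change -5.61, edgeR adjusted p = 0.00191). In all 5 the morula values lay below every 2C value. Called or not, 54 of the 129 members tested lay below in every sum, and 43 lay above. The called members were chosen by these same sums, so a lack of overlap is not independent support, here or below. Its share over all genes was not computed. ZNF354B too lost the call without P1 or without P2, and ZNF283 without P2.

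Members with a known role were also among those that fell. ZNF445, which with ZFP57 keeps the methylation of imprinted genes in mouse and human, had 33.9 and 41.2 CPM in Morula_E4, against 199 and 202 CPM in 2C (log2 change -1.98, edgeR adjusted p = 0.0387). ZNF451, a ligase that attaches SUMO to other proteins, had 76.5 and 56.5 CPM, against 330 and 230 CPM in 2C (log2 change -1.67, edgeR adjusted p = 0.0131). ZNF445 was at 19.8 CPM in ICM_E6 and 22.6 CPM in Epiblast_E10, and ZNF451 at 24.9 and 56.1 CPM. Both lost the call without P1 or without P2. They were still present in later groups, while ZNF436 was at 2.68 CPM in ICM_E6 and 3.24 CPM in Epiblast_E10.

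Among the members that rose, ZNF296, whose mouse counterpart helps in reprogramming to pluripotency, had 132 and 103 CPM in Morula_E4, against 6.09 and 0 CPM in 2C (log2 change 5.48, SE 1.53, edgeR adjusted p = 0.00692). It was at 53.8 CPM in preICM_E5, 24.0 in ICM_E6, 10.0 in Epiblast_E7 and 2.44 in Epiblast_E10, and Morula_E4 was its highest group. Its RefSeq span, chr6:51504384-51508284, overlaps that of GEMIN7, so its count is uncertain. ZNF205 had 94.9 and 206 CPM in Morula_E4, against 3.38 and 7.08 CPM in 2C (log2 change 5.36, SE 1.17, edgeR adjusted p = 0.000496). ZNF330, a cysteine-rich protein of the nucleolus, had 66.2 and 62.6 CPM, against 3.61 and 3.78 CPM in 2C (log2 change 4.54, SE 0.67, edgeR adjusted p = 7.22e-07).

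ZNF331, an imprinted gene in human, had 27.7 and 34.3 CPM in Morula_E4, against 1.81 and 0.944 CPM in 2C (log2 change 4.81, edgeR adjusted p = 0.00409). ZNF274, a KRAB protein that brings SETDB1 to other zinc finger genes in human cells, had 16.9 and 26.0 CPM, against 1.81 and 0.472 CPM in 2C (log2 change 4.48, edgeR adjusted p = 0.00757). ZNF131, a BTB domain factor, had 70.9 and 71.0 CPM, against 19.9 and 15.6 CPM in 2C (log2 change 2.41, edgeR adjusted p = 0.0177). ZNF146, a protein of fingers alone, had 115 and 129 CPM, against 27.8 and 55.2 CPM in 2C (log2 change 2.04, edgeR adjusted p = 0.000546). In all of these the groups did not overlap, and 43 of the 129 members tested lay above in every sum. ZNF274, ZNF296 and ZNF331 lost the call without P13, and ZNF131 without P2 or P13, with DESeq2 and with its size factors.

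**Figure D3:**
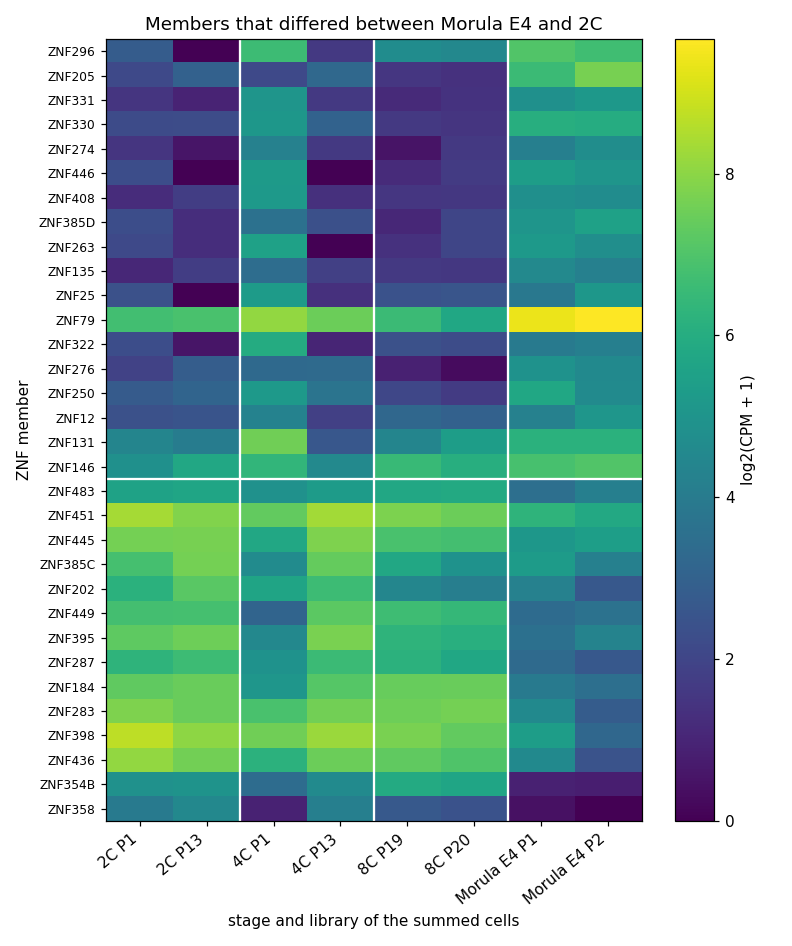
Log2(CPM + 1) of the members that differed between Morula_E4 and 2C with at least 10 CPM in one of them, by stage and library; members above the line were higher in Morula_E4. The 4C column of P1 resembles the morula columns, and those of 4C P13, 8C P19 and 8C P20 resemble 2C.

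Between 4C and 2C, 4 of 129 members were higher and none lower by edgeR (unadjusted p under 0.05 in 25; DESeq2 called 7), while 4.52% of all genes were called, 4.43% higher and 0.0824% lower. Log2 changes of the fit lay 0.18 above the log2 ratio of the CPM values here. ZNF322 had 60.5 and 1.02 CPM in 4C, against 3.84 and 0.472 CPM in 2C (log2 change 3.97, edgeR adjusted p = 0.00904). ZNF330 had 34.1 and 7.13 CPM in 4C, against 3.61 and 3.78 CPM in 2C (log2 change 2.78, edgeR adjusted p = 0.00367), and ZNF131 had 191 and 5.10 CPM, against 19.9 and 15.6 CPM (log2 change 2.78, edgeR adjusted p = 0.0213). The high value was that of P1 each time, and ZNF322 and ZNF131 overlapped between the groups. ZNF79, the fourth, had 273 and 181 CPM in 4C, against 107 and 118 CPM in 2C. ZNF131 was not called with DESeq2's size factors. Without P1 the count was 0 and ZNF131 changed sign, with a log2 change of -1.50; without P13 the count was 7, and with the library as a block in a fit of the 2 groups alone it was 0. ZNF473, which helps to process histone RNA in human cells, had 176 and 2.04 CPM in 4C, against 9.02 and 12.3 CPM in 2C, and did not pass the test (edgeR adjusted p = 0.152).

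Between 8C and 4C, 2 of 129 members were higher and 7 lower, while 11.2% of all genes were called, 4.08% higher and 7.16% lower. The cells of 8C came from P19 and P20, which held none of 2C, 4C or Morula_E4. In every comparison with 8C, here and below, stage and library therefore cannot be told apart. DESeq2 called 25, 10 higher and 15 lower, and edgeR 15 with cells of at least 6000 detected genes. Log2 changes of the fit lay 0.59 above the log2 ratio of the CPM values. ZNF277 had 221 and 285 CPM in 8C, against 68.5 and 85.6 CPM in 4C (log2 change 2.35, SE 0.57, edgeR adjusted p = 0.00327). ZNF282 had 116 and 97.3 CPM in 8C, against 3.84 and 39.2 CPM in 4C (log2 change 3.06, edgeR adjusted p = 0.0224). ZNF384 had 0.771 and 0.223 CPM in 8C, against 37.6 and 3.06 CPM in 4C (log2 change -5.04, edgeR adjusted p = 0.000709), and ZNF148, a zinc finger factor of GC-rich promoters, had 9.93 and 13.9 CPM, against 189 and 7.64 CPM (log2 change -2.58, edgeR adjusted p = 0.0173). ZNF330 had 2.06 and 1.83 CPM in 8C, against 34.1 and 7.13 CPM in 4C (log2 change -2.97, edgeR adjusted p = 0.000446). ZNF250 had 3.17 and 2.23 CPM, against 35.3 and 12.2 CPM, and ZNF16 had 40.7 and 22.9 CPM, against 196 and 92.2 CPM in 4C. ZNF148 overlapped between the groups and changed sign without P1, at 1.40. ZNF277, ZNF282 and ZNF384 lost the call without P1 or without P20, ZNF148 without P19 or without P20, and ZNF282 also with DESeq2's size factors. ZNF330 lost it without P1, and ZNF16 and ZNF250 without P1, P19 or P20. The count was 4 without P1, 18 without P13 and 1 without P20. Set directly against 2C, a comparison added after the data were seen, 8C was higher in 2 members and lower in none (17 of 129 at unadjusted p under 0.05; DESeq2 called 9), while edgeR called 3.78% of all genes, 2.80% higher and 0.985% lower. Here log2 changes of the fit lay 0.75 above the log2 ratio of the CPM values. The members called were ZNF277, with 221 and 285 CPM in 8C, against 131 and 105 CPM in 2C (log2 change 1.86, edgeR adjusted p = 0.0465), and ZNF146, with 89.2 and 65.1 CPM in 8C, against 27.8 and 55.2 CPM in 2C (log2 change 1.66, edgeR adjusted p = 0.0207). That count was 1 without P1, 1 without P13 and 0 without P20. ZNF277 lost this call without P1, P13 or P20 and with DESeq2's size factors, and ZNF146 without P1 or P20.

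Between Morula_E4, by the same sums as against 2C, and 8C, 20 of 129 members were higher and 26 lower, while 30.0% of all genes were called, 16.4% higher and 13.6% lower. With DESeq2's size factors, which move the median of all genes by -0.47, the split was 14 higher and 35 lower; leaving out P2 gave 19 calls and leaving out P20 gave 27. The log2 change of the fit minus the log2 ratio of the CPM values was -0.31. ZNF182 had 1.01 and 0 CPM in Morula_E4, against 65.8 and 66.1 CPM in 8C (log2 change -6.94, edgeR adjusted p = 0.00505), ZNF81 had 5.40 and 7.63 CPM, against 94.8 and 100.4 CPM (log2 change -4.24, edgeR adjusted p = 0.0142), and ZNF277 had 45.4 and 42.0 CPM, against 221 and 285 CPM (log2 change -2.88, edgeR adjusted p = 0.000138). ZNF143, an activator of housekeeping promoters, had 60.1 and 48.1 CPM in Morula_E4, against 183 and 190 CPM in 8C (log2 change -2.11, edgeR adjusted p = 0.00238). ZNF384 rose to 26.5 and 9.92 CPM, against 0.771 and 0.223 CPM in 8C (log2 change 4.99, edgeR adjusted p = 0.000268). In these 5 members the groups did not overlap. Of the 129 members tested, 50 lay above and 51 below in every sum. ZNF182 lost the call without P2, and ZNF81 without P1, P2 or P20. Of the members already described, ZNF205, ZNF330 and ZNF331 were higher than in 8C by 6.12, 4.73 and 4.07 on the log2 scale and ZNF354B lower (log2 change -6.35), of which ZNF331 lost the call without P19. ZNF276, which shares counts with FANCA, had 29.4 and 22.9 CPM in Morula_E4, against 0.856 and 0.223 CPM in 8C. ZNF382, which shares counts with an unnamed gene, had 2.53 and 3.82 CPM, against 49.7 and 54.7 CPM, and lost the call without P1. ZNF2 had 3.38 and 2.29 CPM, against 42.8 and 41.7 CPM in 8C, and lost the call without P1, P2 or P20.

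**Figure D4:**
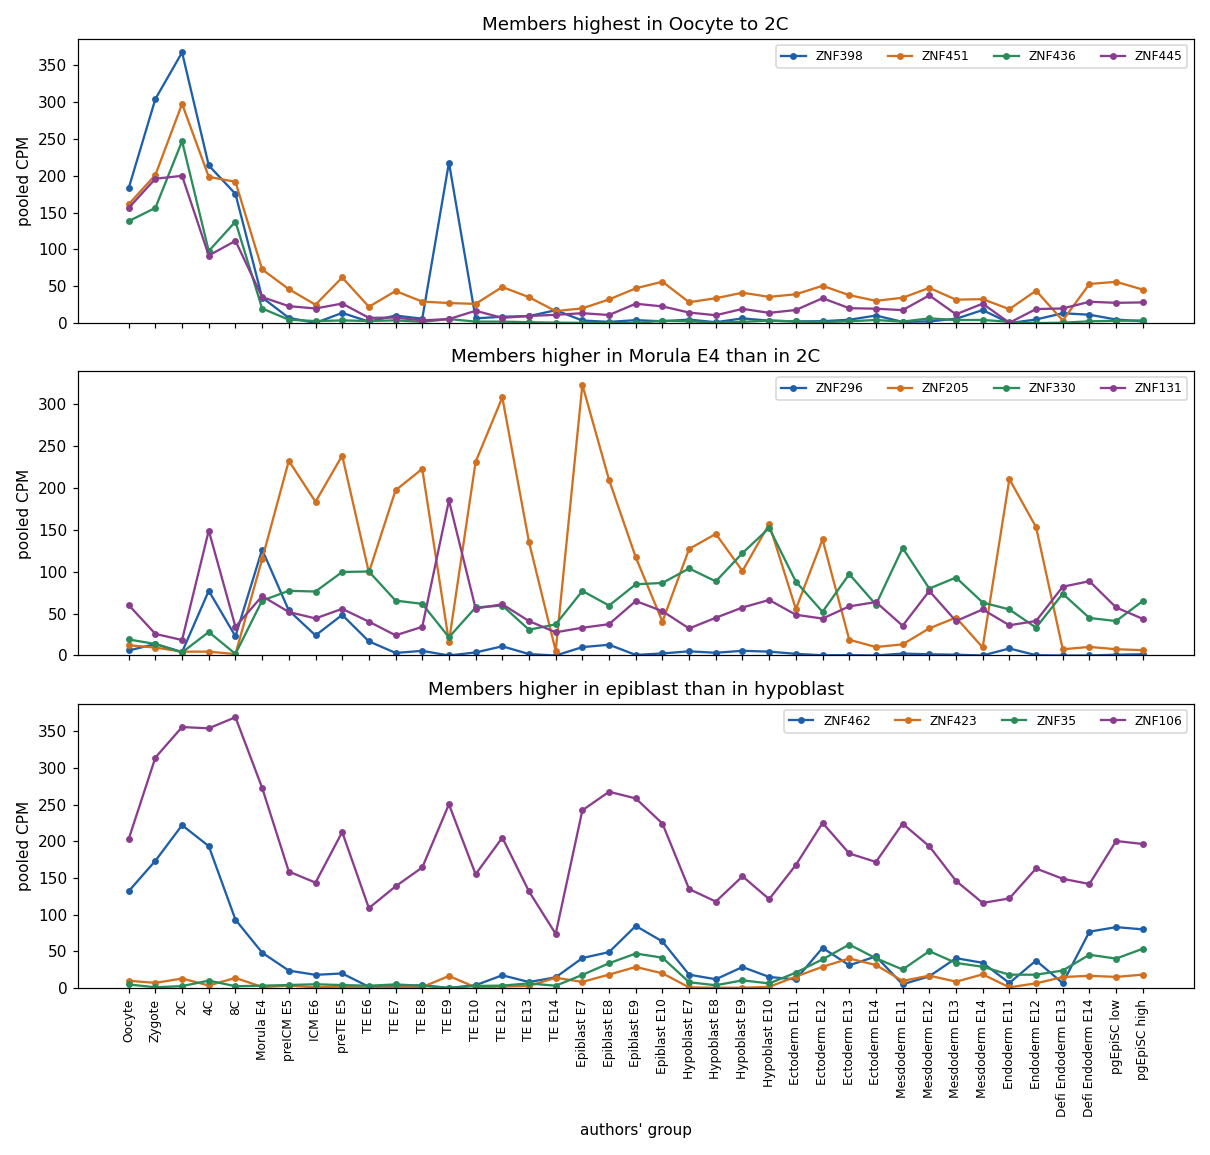
Pooled CPM in the 39 groups of 4 members highest between Oocyte and 2C (top), 4 members higher in Morula_E4 than in 2C (middle) and 4 members higher in the epiblast than in the hypoblast (bottom). The levels of ZNF398 (218 CPM) and ZNF131 (185 CPM) at TE_E9 rest on 2 cells.

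After the morula ZNF205 varied between groups and between libraries of a group. It had 514 and 199 CPM in the 2 libraries of Epiblast_E7, 399 and 78.0 in Epiblast_E8, 117 in Epiblast_E9, and 48.0 and 30.5 in Epiblast_E10. Its levels in TE_E7 were 233 and 22.3 CPM. In the 3 libraries of Ectoderm_E14 it had between 4.75 and 12.5 CPM, and in TE_E14 0 and 6.09 CPM. ZNF330, which rose beside it at the morula, had 77.1 CPM in Epiblast_E7 and 86.6 in Epiblast_E10.

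From ICM_E6 to Epiblast_E7 the call went to 1 of 129 members, ZNF202, which was higher, while 1.84% of all genes were called, 1.12% higher and 0.712% lower. In this comparison and the ectoderm comparisons of this paragraph no library held cells of both arms. Stage and library cannot be told apart in them. It had 87.8 and 111 CPM in Epiblast_E7, against 4.99 and 7.63 CPM in ICM_E6 (log2 change 3.99, SE 1.05, edgeR adjusted p = 0.0328), and SCN3B was higher there too, by 5.46 on the log2 scale (edgeR adjusted p = 0.0148). ZNF202 lost the call without any 1 of the 4 libraries, and the count was 0 without P8, P14 or P15. Between Ectoderm_E11 and Epiblast_E10 edgeR called none of 129 members (8 at unadjusted p under 0.05; DESeq2 called 2) and 0.165% of all genes (0.148% higher and 0.0174% lower), with a median log2 change of -0.42 over members and 0 over all genes. Over the ZNF genes numbered 500 or more this median was -0.36. ZNF462, a chromatin protein needed by mouse embryonic stem cells, had 6.002 and 12.1 CPM in Ectoderm_E11, against 63.2 and 63.5 CPM in Epiblast_E10, which did not pass (edgeR adjusted p = 0.218). Between Ectoderm_E14 and Ectoderm_E13 none of 129 was called either (3 at unadjusted p under 0.05; DESeq2 0), nor more than 0.269% of all genes (0.0608% higher and 0.208% lower).

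Other members stood higher in Epiblast_E10 than in Epiblast_E7. ZNF232 was at 1.88 CPM or less in every group up to Morula_E4, at 0.130 CPM in Epiblast_E7, and at 12.5 CPM in Epiblast_E10, 18.2 in Ectoderm_E13 and 19.03 in pgEpiSC_high. ZNF32 had 0.276 CPM in Morula_E4, 8.44 in Epiblast_E7, 64.6 in Epiblast_E10 and 76.6 in pgEpiSC_high. ZNF396 had 0.638 CPM in ICM_E6, 6.36 in Epiblast_E7, 65.5 in Epiblast_E10 and 91.96 in Ectoderm_E12. These steps within the epiblast were not tested.

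Hypoblast and epiblast were compared inside 6 libraries that held both, with the library as a block. In P5 hypoblast of E8 and E10 was set against epiblast of E8. The hypoblast is the first endoderm of the embryo, which lines the cavity below the epiblast. Of 127 members tested, 4 were higher in the hypoblast (3.15%) and 13 lower (10.24%), while 18.9% of all genes were called, 10.8% higher and 8.14% lower. DESeq2 called 30, 8 higher and 22 lower. ZNF75D had 16.4 to 60.5 CPM in the 6 hypoblast sums (median 27.5), against 1.30 to 8.02 CPM (median 5.49) in the epiblast (log2 change 2.67, SE 0.40, edgeR adjusted p = 0.000318). ZNF326, part of a complex that couples elongation to splicing in human cells, had 38.1 to 91.3 CPM (median 52.4) in the hypoblast, against 15.9 to 38.3 CPM (median 28.8) in the epiblast (log2 change 1.11, edgeR adjusted p = 0.00816). ZNF330 had 89.7 to 138 CPM (median 116) in the hypoblast, against 54.0 to 88.1 CPM (median 68.9) in the epiblast (log2 change 0.75, SE 0.19, edgeR adjusted p = 0.0124). The groups did not overlap for ZNF75D and ZNF330, and for ZNF326 they overlapped by 1 value on either side. The fourth, ZNF467, had 3.55 to 14.9 CPM in the hypoblast, against 0.453 to 10.6 CPM in the epiblast, and lost the call without P4, P5, P16 or P17.

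Among the 13 members lower in the hypoblast, ZNF423, a cofactor of BMP-activated SMAD factors, had 0.0532 to 1.97 CPM (median 0.627) in the hypoblast, against 6.63 to 28.6 CPM (median 17.3) in the epiblast (log2 change -4.71, SE 0.81, edgeR adjusted p = 0.00103). ZNF462 had 8.45 to 28.5 CPM (median 18.3) in the hypoblast, against 33.4 to 84.6 CPM (median 53.1) in the epiblast (log2 change -1.52, SE 0.24, edgeR adjusted p = 0.000562). ZNF385D had 0.106 to 7.68 CPM (median 0.974) in the hypoblast, against 17.2 to 56.2 CPM (median 32.4) in the epiblast (log2 change -5.03, edgeR adjusted p = 0.000262). ZNF35 had 1.91 to 10.3 CPM (median 6.28) in the hypoblast, against 10.9 to 46.9 CPM (median 30.8) in the epiblast (log2 change -2.25, edgeR adjusted p = 0.00181). In none of these 4 did the groups overlap. Of the 127 members tested, 2 lay above and 9 below in every sum.

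ZNF106, an RNA-binding protein that motor neurons need in mouse, had 104 to 152 CPM (median 126) in the hypoblast, against 207 to 304 CPM (median 251) in the epiblast (log2 change -0.96, SE 0.15, edgeR adjusted p = 0.000488). ZNF185, a LIM domain protein of the actin skeleton, had 0.315 to 3.78 CPM (median 0.686) in the hypoblast, against 6.42 to 17.9 CPM (median 12.2) in the epiblast (log2 change -3.45, edgeR adjusted p = 0.00339). ZNF202 had 4.11 to 16.9 CPM (median 6.99) in the hypoblast, against 26.7 to 111 CPM (median 66.7) in the epiblast (log2 change -2.77, edgeR adjusted p = 3.77e-05), and SCN3B fell with it by 4.40 on the log2 scale. In these 3 too the groups did not overlap. ZNF227 had 1.86 to 7.79 CPM (median 4.18) in the hypoblast, against 10.4 to 45.5 CPM (median 12.8) in the epiblast (log2 change -1.80, edgeR adjusted p = 0.0272), and lost the call without P4, P5 or P17. ZNF292 had 14.1 to 33.2 CPM (median 18.6) in the hypoblast, against 18.9 to 78.8 CPM (median 39.02) in the epiblast, where the groups overlapped (log2 change -0.95, edgeR adjusted p = 0.0139). With DESeq2's size factors 4 were higher and 15 lower. ZNF330 lost its call without P16.

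**Figure D5:**
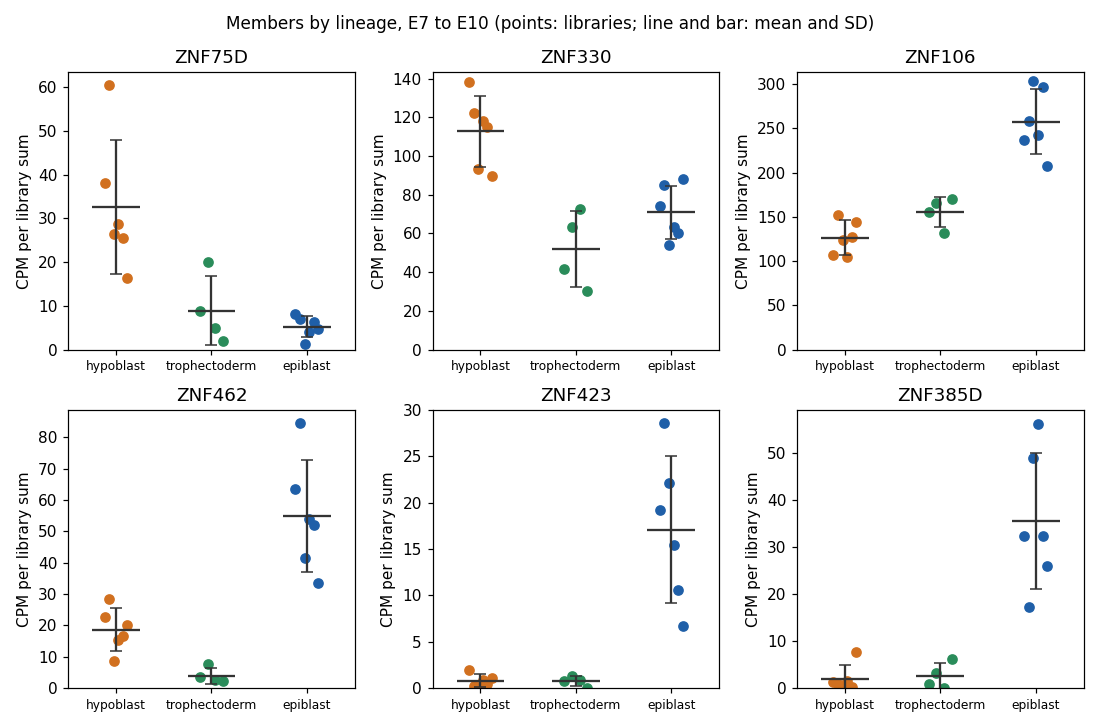
CPM per library of 6 members in hypoblast (6 libraries), trophectoderm (4 libraries) and epiblast (6 libraries) of E7 to E10; points are libraries, the line and bar give mean and SD. ZNF75D and ZNF330 are highest in the hypoblast, ZNF106, ZNF462, ZNF423 and ZNF385D in the epiblast. The trophectoderm cells are of E7 and E8 and, in P5, also of E10.

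Trophectoderm and epiblast were sought over E7 to E10 and compared inside the 4 libraries that held enough cells of both. The epiblast cells were of E8 in P4 and P5 and of E7 in P8 and P9. The trophectoderm cells were of the same days, except in P5, with 3 cells of E8 and 7 of E10. These epiblast sums also served for the hypoblast, so the results below are not independent of those above. Of 102 members tested, 1 was higher in the trophectoderm and 10 lower (9.804%), while 13.6% of all genes were called, 6.06% higher and 7.58% lower. The median log2 change was -0.61 over members, -0.16 over all genes and -0.34 over the ZNF genes numbered 500 or more. ZNF391 had 47.4, 27.0, 8.57 and 6.07 CPM in the trophectoderm of P4, P5, P8 and P9, against 5.86, 4.08, 1.32 and 1.28 CPM in the epiblast of the same libraries (log2 change 2.67, edgeR adjusted p = 0.0281). Its whole RefSeq span lies inside that of the protein-coding gene LOC102159855, so its count is uncertain. ZNF462 had 3.31, 7.53, 2.45 and 2.02 CPM, against 41.6, 53.9, 52.2 and 33.4 CPM (log2 change -3.64, SE 0.67, edgeR adjusted p = 0.000942).

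ZNF385D had 0.735, 3.10, 0 and 6.07 CPM in the trophectoderm, against 48.8, 56.2, 32.4 and 25.9 CPM in the epiblast (log2 change -4.71, edgeR adjusted p = 0.00131). ZNF423 had 0.735, 1.33, 0.816 and 0 CPM, against 22.1, 15.4, 10.6 and 6.63 CPM (log2 change -4.05, edgeR adjusted p = 0.0166). ZNF146 had 105, 59.8, 132 and 140 CPM, against 230, 181, 270 and 266 CPM (log2 change -1.19, edgeR adjusted p = 0.0336). ZNF396 had 0, 1.77, 1.22 and 0 CPM, against 24.1, 13.6, 7.93 and 5.35 CPM (log2 change -4.01, edgeR adjusted p = 0.0395). Each of the 4 libraries showed these directions, and in these 6 members the groups did not overlap. Of the 102 members tested, 2 lay above and 17 below in every sum. The called members were chosen by these same sums, so neither point is independent support. ZNF202 had 1.47, 5.76, 4.49 and 28.3 CPM, against 45.5, 26.7, 87.8 and 111 CPM (log2 change -3.29, edgeR adjusted p = 0.000939). It was lower in each library, but the trophectoderm of P9 stood above the epiblast of P5. The count was 6 without P4, 5 without P5, 3 without P8 and 5 with sums of the same day only, an alternative added after the data were seen. ZNF146, ZNF391, ZNF396 and ZNF423 lost the call in each of these. The trophectoderm sums held 5 to 14 cells.

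In the earlier trophectoderm of E5 and E6, set against the inner cell mass in 3 libraries, edgeR called none of 112 members and 0% of all 12440 genes tested (6 members at unadjusted p under 0.05; DESeq2 called 5, and leaving out P2 gave 3). Mesoderm against ectoderm gave none of 121 members (10 at unadjusted p under 0.05; DESeq2 called 3, and 3 were called without P6), while 3.10% of all genes were called, 1.86% higher and 1.24% lower. The part of the mesoderm, ectoderm and endoderm markers that went against the group names was not tested, here or for the endoderm below. ZNF423 came nearest, with 4.6 to 16.8 CPM (median 11.8) in the mesoderm, against 15 to 44.8 CPM (median 32.2) in the ectoderm (log2 change -1.34, edgeR adjusted p = 0.0691). Endoderm against ectoderm gave none of 120 members (8 at unadjusted p under 0.05; DESeq2 0), while 1.81% of all genes were called, 1.41% higher and 0.397% lower. In both, more members lay below than above the ectoderm, with median log2 changes of -0.32 and -0.43, against -0.08 and -0.24 over all genes. Over the ZNF genes numbered 500 or more the medians were -0.35 and -0.57, so these shifts were not particular to the members.

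In pgEpiSC, set against Epiblast_E10, 1 of 127 members was higher and 3 were lower. The 2 pgEpiSC libraries, labelled low and high, are separate groups that served here as the replicates of 1 arm, and no library held cells of both arms, so line and library cannot be told apart. Of all genes, 6.52% were called, 3.30% higher and 3.23% lower. The higher member was ZNF79, with 865 CPM in pgEpiSC_high and 1095 in pgEpiSC_low, against 620 and 647 CPM in Epiblast_E10 (log2 change 0.88, edgeR adjusted p = 0.00498), and the unnamed gene moved by the same 0.88. ZNF205 had 6.34 CPM in pgEpiSC_high and 7.50 in pgEpiSC_low, against 48.0 and 30.5 CPM in Epiblast_E10 (log2 change -2.25, SE 0.61, edgeR adjusted p = 0.0489). ZNF185 had 1.35 and 0.965 CPM, against 7.91 and 9.91 CPM (log2 change -2.70, edgeR adjusted p = 0.0422), and ZNF202 had 7.69 and 7.05 CPM, against 40.9 and 29.3 CPM (log2 change -2.002, edgeR adjusted p = 0.00394). In none of the 3 did the groups overlap, and ZNF185 and ZNF205 lost the call without any 1 of the 4 libraries. Of the 127 members tested, 25 lay above and 46 below in every sum. The Epiblast_E10 sums also served against Ectoderm_E11. The count was 0 without pgEpiSC_low or without P15, and 2 without pgEpiSC_high or without P16. ZNF462 stood at 82.9 and 79.9 CPM in pgEpiSC_low and pgEpiSC_high, against 63.4 CPM in Epiblast_E10, and ZNF396 at 68.4 and 68.2 CPM, against 65.5 CPM; neither difference passed the test.

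Proteins through which KRAB zinc fingers silence DNA, other chromatin proteins and ZFP57, itself a KRAB zinc finger, were read as a list of 25 genes. Of these, 23 were found. In Morula_E4 against 2C, 5 of 23 were higher and 4 lower, while 14.4% of all genes were called higher and 7.61% lower. TRIM28, the shared corepressor, averaged 329 TMM-scaled CPM in Morula_E4 and 62.7 in 2C (log2 change 2.40, SE 0.32, edgeR adjusted p = 1.14e-07), and the imprint protector ZFP57 averaged 142 and 2.85 (log2 change 5.61, edgeR adjusted p = 5.38e-05). DNMT1, the maintenance DNA methyltransferase, averaged 434 in Morula_E4 and 1568 in 2C (log2 change -1.85, edgeR adjusted p = 0.0181), and UHRF1, which guides it, 11.05 and 126 (log2 change -3.42, edgeR adjusted p = 0.00612). ZFP57 thus rose where ZNF445, which also acts in imprint control, fell. In the hypoblast against the epiblast, 1 of 23 was higher and 7 lower, while 10.8% of all genes were called higher and 8.14% lower. The lower ones included MORC3 (log2 change -2.26, edgeR adjusted p = 4.16e-05) and SMARCAD1 (log2 change -1.33, edgeR adjusted p = 0.00063).

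Of the 11 members at 10 CPM or more in every group, ZNF79, ZNF410 and ZNF483 share counts with another gene, and the others were ZNF16, ZNF24, ZNF106, ZNF131, ZNF146, ZNF207, ZNF217 and ZNF326. ZNF207, which binds spindle microtubules and the checkpoint protein BUB3 at kinetochores in human cells, had 125 CPM in Oocyte, 144 in 2C, 283 in 4C, 202 in Morula_E4, 142 in ICM_E6, 209 in Epiblast_E10 and 195 in pgEpiSC_low. ZNF217, a repressor amplified in human breast cancer, had 147 CPM in 2C, 60.0 in Morula_E4, 45.4 in ICM_E6 and 44.2 in Epiblast_E10. Neither passed the test between Morula_E4 and 2C, with edgeR adjusted p-values of 0.145 for ZNF207 and 0.263 for ZNF217. ZNF146 had 36.6 CPM in 2C, 118 in Morula_E4, 255 in ICM_E6, 267 in Epiblast_E7, 201 in Epiblast_E8, 351.5 in Epiblast_E9 and 298 in Epiblast_E10. It was thus higher in all 4 epiblast groups than in 2C and Morula_E4, with no steady order among them. ZNF281, a repressor of pluripotency genes in mouse stem cells, had 75.6 CPM in 2C, 23.8 in Morula_E4 and 14.2 in Epiblast_E10, and did not pass the test between Morula_E4 and 2C (edgeR adjusted p = 0.291). ZNF335, which shares counts with PCIF1, had 42.0 and 47.3 CPM in Morula_E4, against 13.1 and 18.9 CPM in 2C, and did not pass either (edgeR adjusted p = 0.0656), nor did ZNF24, ZNF292, ZNF341 and ZNF346.

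Other members had their highest deposited mean in a later group. ZNF471 had it in preICM_E5, at 49.3 CPM, but by pooled CPM in Oocyte, at 67.1 CPM. ZNF292 had 93.5 CPM in Defi_Endoderm_E14, where ZNF322 and ZNF358 also had their highest mean, at 42.6 and 36.7 CPM. ZNF346, an RNA-binding protein, had 23.8 CPM in Mesdoderm_E13. ZNF227 had 45.5 CPM in Epiblast_E9, and ZNF48 had 17.97 CPM in pgEpiSC_low and 10.7 in pgEpiSC_high. These levels were not tested against the other groups.

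In the RefSeq annotation of Sscrofa11.1, 115 of the 130 members had a position, on 18 chromosomes, 28 of them on chromosome 6. There were 16 runs of members no more than 200000 bases apart, holding 43 members. One run of 5 on chromosome 3 held ZNF174, ZNF263, ZNF200, ZNF213 and ZNF205, the last at chr3:39091439-39105633. On chromosome 13, ZNF445 was highest in 2C and ZNF35, at chr13:27902503-27920494, in Epiblast_E9 by the deposited means. The spans of 38 members overlap another RefSeq gene, in 25 cases a protein-coding one, so their counts are uncertain. Among the latter, ZNF391, ZNF473 and ZNF232 lie wholly inside LOC102159855, VRK3 and RABEP1, and ZNF146 shares 33896 bases with ZNF565.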

How the data were processed

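The authors deposited a table of raw counts per gene and cell, and tables of the mean and the standard deviation of log2 values per gene over the cells of each group. Per the submitters' processing notes, the tools were STAR 2.7.1a, featureCounts 1.6.4 and UMI-tools on Sscrofa11.1, with no role or order given. The deposited log2 means matched the mean of log2(CPM/10 + 1) recomputed from the deposited counts, within 0.005, and the cells of each group were recovered through that match by least squares, since the labels give no stage; membership is therefore a reconstruction and not a deposited annotation. The deposited standard deviations served only as a check of it. Names were paired with gene IDs by the same means, for 25494 of 25749 names.

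Counts were summed per group and library (at least 5 cells, fewer for Oocyte, Zygote, 2C and 4C). Sums were tested over all genes with edgeR 4.0.16 in R 4.3.3, with TMM scaling, its quasi-likelihood test and Benjamini-Hochberg adjusted p under 0.05. Stage comparisons shared 1 fit over the embryonic sums; comparisons of lineages were blocked by library. Intervals and floors of 3 counts cover counting error only. Alternatives were DESeq2 1.42.0, its size factors in edgeR, no filter on low counts, cells with at least 6000 detected genes, pooled CPM, fits with and without the block, and each library left out; sums of the same day only and 8C against 2C were added after the data were seen. The scripts were tested on simulated data. Members and lists were chosen with earlier results of these data known. Genes were named by size of change (5 per comparison and direction with at least 10 CPM), by level (the 10 highest group means and the highest of each class) and by known role; others named were chosen after their values were seen.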

Additional observations from a re-analysis of the deposited data

Results flagged for a closer look

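Each arm of 4 to 6 libraries was searched for a sum far from the others, for the named members and for the summed level of all members tested; 4 of 38 arms had one, and chance flags about 1 in 20 groups. ZNF385D had 7.68 CPM in the hypoblast of P9, and the next highest of the 6 hypoblast sums had 1.53 CPM. The summed level of the members in the hypoblast of P17 was 3416 CPM, the next highest 2961 CPM. ZNF202 had 28.3 CPM in the trophectoderm of P9, which is 5 cells, and the next highest of the 4 sums had 5.76 CPM. The summed level in the ectoderm of P6 was 2984 CPM, the next lowest of the 6 sums 3495 CPM. No cause was tested for any of them.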

How the results depend on the processing

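Counts of members called moved with DESeq2 to 7 (4C against 2C), 25 (8C against 4C), 60 (Morula_E4 against 2C), 9 (8C against 2C), 6 (Epiblast_E7 against ICM_E6), 2 (Ectoderm_E11 against Epiblast_E10), 5 (trophectoderm against inner cell mass), 30 (hypoblast against epiblast) and 3 (mesoderm against ectoderm). With its size factors in edgeR 8C against 2C gave 1. Without a filter on low counts trophectoderm against inner cell mass gave 6, mesoderm 5 and endoderm 1. With cells of at least 6000 detected genes 8C against 4C gave 15 and Epiblast_E7 against ICM_E6 gave 2. Sums of the same day gave 5 for trophectoderm against epiblast. By pooled CPM the highest group lay in the inner cell mass for 0 members, the trophectoderm for 19, the ectoderm for 5 and the mesoderm for 2. No share of all genes is given for these settings, so the counts cannot be set against a background. The cause of these moves was not tested.

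Leaving out each library in turn gave 0 to 7 calls (4C against 2C), 1 to 18 (8C against 4C), 19 to 36 (Morula_E4 against 8C), 14 to 22 (Morula_E4 against 2C), 0 to 2 (8C against 2C), 0 to 1 (Epiblast_E7), 0 to 3 (trophectoderm against inner cell mass), 3 to 11 (trophectoderm against epiblast), 13 to 17 (hypoblast), 0 to 3 (mesoderm) and 0 to 2 (pgEpiSC). The log2 change of ZNF131 in 4C against 2C ran between -1.50 and 3.33, and that of ZNF148 in 8C against 4C between -3.35 and 1.40.

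With the library as a replicate block in a fit of 4C and 2C alone, 0 members were called by edgeR; libraries P1 and P13 hold both stages. Without the block in the lineage fits no count moved by over 1.5 times.

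The stages tested rest on 2 or 3 libraries each, Oocyte, Zygote and preICM_E5 on 1, and the trophectoderm sums set against the epiblast on few cells. The 2C sum of P13 is 2 cells, and the Morula_E4 sum of P2 and the 4C sum of P13 are 6 cells each.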
